A study of Mus musculus with 3 samples.

Results

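Muscle contracts when myosin heads pull on actin filaments, and each muscle type builds this machinery from its own set of closely related isoforms. The genes described here encode the sarcomere and smooth muscle contractile apparatus: myosin heavy and light chains, troponins, tropomyosins, actins and the proteins that anchor, regulate or supply them. They were 42 named genes, of 30458 gene symbols on the array, and every one of them was found by its gene name among the non-control spots, through 62 probes. By the muscle in which an isoform is best known, 15 were grouped as cardiac, 10 as skeletal, 9 as smooth and 8 as shared by several muscle types.

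The RNA came from mouse embryoid bodies, the floating clumps that embryonic stem cells form as they differentiate once the cytokine LIF is withdrawn, collected at day 10. The mutant samples carried the Dido3deltaCT allele, which truncates the C-terminus of Dido3, the largest product of the Dido1 gene, and the control samples were wild type. Each of 3 arrays held 1 mutant and 1 wild type sample labelled with different dyes, the mutant in Cy3 on replicates 1 and 3 and in Cy5 on replicate 2. The labels call the samples biological replicates and name neither the cell lines nor their number, so p-values measure the spread between these samples, which may lie within 1 line per genotype.

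Spontaneous differentiation of embryoid bodies is known to yield beating foci of cardiomyocytes, and with them smooth muscle and some skeletal muscle precursors. In the sarcomere, calcium binds troponin C, troponin I then releases its hold on actin, and troponin T passes the movement to tropomyosin, which uncovers the myosin binding sites. Smooth muscle lacks troponin and is switched on instead when myosin light chain kinase phosphorylates the regulatory light chain.

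Some sequences help to see what was measured. The probes of Tnnc1, the calcium sensor of cardiac and slow muscle, and of Myl7, the regulatory light chain of the atria, both lie over a calcium-binding EF-hand loop. The capitals mark the codons for the first 6 residues of that loop, read as aspartate, any residue, then aspartate, asparagine or serine, any residue, one of those again, and glycine. Such codons occurred in 50 of 39429 probes on the array (0.127%), in any forward frame without a stop, and in these 2 of the 62 muscle gene probes. On mm9 the Tnnc1 probe aligns to chr14:32023360-32023776 on the plus strand and the Myl7 probe to chr11:5798186-5798435 on the minus strand, so that each 60-base probe crosses an intron.
Tnnc1 probe: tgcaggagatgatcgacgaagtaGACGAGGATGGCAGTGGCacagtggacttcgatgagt
Myl7 probe: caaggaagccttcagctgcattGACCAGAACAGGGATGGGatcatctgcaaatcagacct

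The 2 probes of Tnnt3, which encodes troponin T of fast skeletal muscle, overlap by 27 bases, in capitals, so their values are not independent of each other. The brighter covers chr7:149698467-149698526 on the plus strand of mm9 and the other runs on from there across an intron to position 149700262.
Tnnt3 brighter probe: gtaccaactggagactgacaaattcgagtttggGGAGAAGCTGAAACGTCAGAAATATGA
Tnnt3 dimmer probe: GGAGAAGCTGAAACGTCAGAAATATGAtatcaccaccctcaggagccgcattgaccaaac

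Many muscle genes are known to be switched on by serum response factor, which binds the CArG box, written CC, then 6 bases that are each A or T, then GG. The motif reads as itself on the opposite strand. Among the 250 bases upstream of the annotated start (RefSeq, GRCm38.p6), 6 of the 37 muscle genes with an entry held the box (16.2%), against 439 of 27025 genes (1.62%). They were Acta1, Actc1, Myl3, Myl7, Myl9 and Myom1. Actg2, Myh11, Tagln, Tnni2 and Tnnt3 had no entry and were not searched. Only exact matches in this window counted, so boxes elsewhere or with other bases were not looked for in any gene. The MEF2 site was found in 2 of the 37, Mybpc3 and Ttn (5.41%), against 3.42% of all genes, and no gene of the 37 held both motifs. The 4 upstream stretches printed here, box in capitals, belong to a pair of genes that were lower in the mutant on every array, Myl3 and Myl7, and to a pair whose arrays disagreed in sign, Actc1 and Myl9. The Myl3 stretch is chr9:110763428-110763677 on the plus strand, with the box beginning 85 bases before the start. That of Myl7 is chr11:5898783-5899032 on the minus strand, with the box at 61 bases. For Actc1 it is chr2:114052876-114053125 on the minus strand, with the box at 47 bases, and for Myl9 chr2:156775214-156775463 on the plus strand, with the box at 161 bases.
Myl3 upstream: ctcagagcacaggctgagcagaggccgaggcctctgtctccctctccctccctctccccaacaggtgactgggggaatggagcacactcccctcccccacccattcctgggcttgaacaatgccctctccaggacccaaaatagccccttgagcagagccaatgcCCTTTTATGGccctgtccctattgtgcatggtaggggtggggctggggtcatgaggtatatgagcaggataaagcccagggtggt
Myl7 upstream: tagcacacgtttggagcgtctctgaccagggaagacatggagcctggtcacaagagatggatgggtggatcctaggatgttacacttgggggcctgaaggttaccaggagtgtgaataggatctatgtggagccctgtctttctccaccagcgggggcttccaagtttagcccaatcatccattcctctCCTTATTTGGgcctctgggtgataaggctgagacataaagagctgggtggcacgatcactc
Actc1 upstream: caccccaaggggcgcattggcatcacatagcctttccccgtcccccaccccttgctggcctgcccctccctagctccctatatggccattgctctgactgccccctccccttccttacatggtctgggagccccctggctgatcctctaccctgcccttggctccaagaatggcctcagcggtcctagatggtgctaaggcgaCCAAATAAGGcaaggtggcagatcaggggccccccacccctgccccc
Myl9 upstream: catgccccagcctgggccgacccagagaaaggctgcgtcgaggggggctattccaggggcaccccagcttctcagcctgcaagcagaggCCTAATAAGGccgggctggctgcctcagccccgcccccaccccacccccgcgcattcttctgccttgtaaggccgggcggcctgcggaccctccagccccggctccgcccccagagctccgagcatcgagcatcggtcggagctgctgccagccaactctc
A box in this window was thus present both in genes that were lower and in genes whose arrays differed in sign.

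Between 46.5% and 74.4% of non-control spots were well above background, depending on the array and the dye. The pattern of ratios over genes was closer between replicates 1 and 3, which share a dye orientation (r = 0.88 across genes, which are not independent replicates), than between either and replicate 2 (r = 0.15 and 0.18). The targeted gene was read by 4 probes. Of these 3 had ratios of 1.74, −1.92 and 1.12, and the other, above background in no wild type sample, had mutant signal at least 2.17-fold higher. The labels do not say which exons the allele removes, so these do not check the genotype. The Y-linked genes Eif2s3y and Ddx3y were lower in the mutant. Ddx3y was above background in no mutant sample and at least 21.2-fold lower, and Eif2s3y, above background in 1 of the 3 mutant samples, had a log2 ratio of −6.17, so the effect of the allele and any other difference between the cell lines cannot be told apart. All 10 pluripotency genes and all 10 parietal endoderm genes were bright enough to be tested, which asks for signal throughout in at least 1 genotype.

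A ratio below is the log2 of mutant over wild type intensity on one array, so −1 means that the mutant had 1 part where the wild type had 2. A level is the normalized log2 intensity of one sample, and levels are compared within a probe only. A gene was tested with limma where the scanner marked its probe as well above background throughout in the mutant, the wild type or both, and a call means a Benjamini-Hochberg adjusted p under 0.05 over the 15428 genes so tested. Of the 42 muscle genes 30 were tested, each through its brightest probe.

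The contractile genes did not differ in one direction. Myl3, the essential light chain of ventricular and slow muscle myosin, fell in the mutant and was the single gene of the 30 to be called. In RNA from whole embryoid bodies, fewer cells of a type and less RNA per cell cannot be told apart. The share of all tested genes called lower was 0.0907%. None was called higher, where the share of all genes was 0.207%, and at an unadjusted p under 0.05 there were 6 higher and 8 lower muscle genes, 14 of 30 in all, against 22.7% of all genes tested. The muscle genes were chosen with earlier results of these data known, so no test over the list was made. At an adjusted p under 0.1 there were 6 lower genes, Acta2, Myh7, Myl3, Myl7, Tnnc1 and Tpm4, where 3.8% of all genes were lower by that measure, and 2 higher, Myh3 and Myh6, where 4.22% were higher. Counts depended on the arrays and the model: without replicate 2 there were 9 muscle genes called lower and 5 higher, without replicate 1 there were 0 of each, and with a dye term 7 and 6. Calls over all 15428 genes moved as well, to 3343 lower and 3962 higher without replicate 2. They were 2 and 3 without replicate 1, and 2299 and 2448 with a dye term. Without replicate 2 the arrays left share a dye orientation, so dye and genotype cannot be told apart there. The dye term has replicate 2 alone for the other orientation and leaves fewer residual degrees of freedom. The larger counts are therefore no better calls of genotype.

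Of the 30 genes 7 had a ratio above 0 on all 3 arrays (21.7% of all tested genes did) and 8 a ratio below 0 on all 3 (22.7% of all). The signs were mixed for the other 15. Mutant and wild type levels did not overlap for 9 of the 30, against 21.3% of all tested genes. Among these 9, Myl3, Myh7, Tnnc1 and Tpm4 were lower in the mutant, and Myh3, Myh6, Tnnc2, Tnnt3 and Tpm3 were higher. Of them Myh7, Tnnc1, Myh3 and Tnnc2 passed the filter only through the genotype in which they were brighter. For those genes the separation is therefore partly set by the filter.

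By class, the skeletal genes stood higher than the cardiac ones on each array. Over all 15 cardiac genes, dim ones included, the median ratio was −0.18, −0.37 and −0.69 on replicates 1, 2 and 3. Over the 10 skeletal genes it was 0.18, 0.27 and 0.62. The 9 smooth muscle genes had −0.14, −0.08 and 0.26, and the 8 genes of several muscle types −0.14, −0.21 and 0.14. The median over all genes with a probe lay between 0.0005 and 0.02 on the 3 arrays. The skeletal median of the mean ratios was 0.30 and the cardiac −0.39, and without replicate 3 they were 0.11 and −0.21. Within the classes the mean ratios ran from −3.95 to 1.81 for cardiac genes, from −0.50 to 2.44 for skeletal, from −2.30 to 0.70 for smooth and from −1.23 to 1.15 for the shared genes. Of 12 cardiac genes tested 1 was called lower and 0 higher (limma; at an unadjusted p under 0.05, 5 lower and 1 higher). None of the 7 skeletal, 6 smooth and 5 shared genes tested was called, and at an unadjusted p under 0.05 they had 3 higher and 0 lower, 1 and 1, and 1 and 2.

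**Figure D1:**
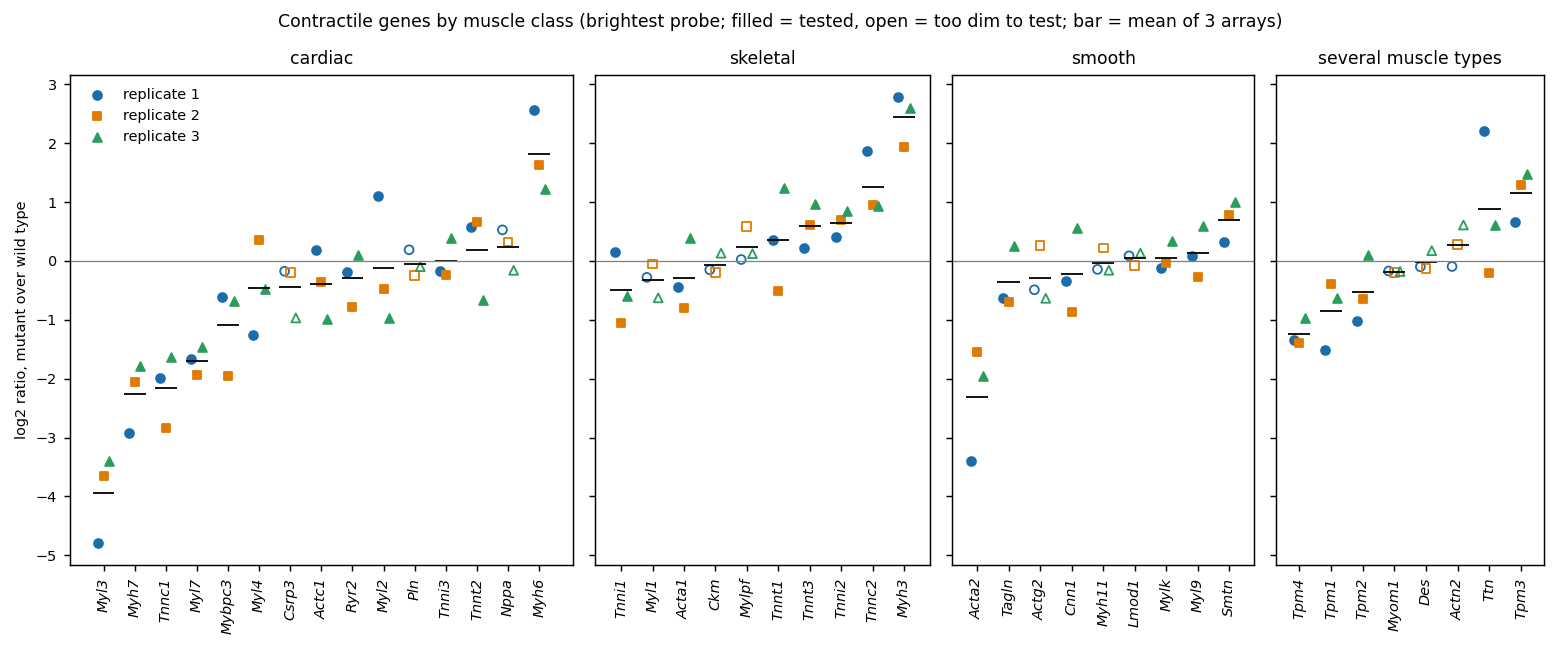
Each point is the log2 ratio of mutant over wild type on 1 array for the brightest probe of each of the 42 genes, in 4 panels by muscle class and ordered by the mean (black bar); open points are genes too dim to test. In the cardiac panel Myl3, Myh7, Tnnc1 and Myl7 lie below 0 on every array while Myh6 lies above it, and in the skeletal panel Myh3 and Tnnc2 lie above 0 on every array.

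Among the myosin heavy chains, the motor proteins themselves, none was called, and the ratios of the isoforms had opposite signs. Myh7 encodes the slow beta chain of ventricle and slow skeletal muscle. Its mutant levels were 6.34, 8.42 and 7.55 on replicates 1, 2 and 3, and its wild type levels 9.26, 10.48 and 9.34. Every mutant sample lay below every wild type sample. The ratios of −2.92, −2.06 and −1.79 averaged −2.25 ± 0.32 (SE of the limma fit, n = 3), 4.77-fold lower, with an adjusted p of 0.0559. The probe, at chr14:55589581-55589640 of mm9, exceeded background on every wild type array but on 1 mutant array of 3, so the fold rests partly on mutant values at background.

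Myh6, the fast alpha chain of atrial and adult mouse ventricular myosin, was the higher in the mutant. Its levels were 10.89, 10.37 and 10.86 in the mutant and 8.33, 8.73 and 9.64 in the wild type, with no overlap. The mean ratio of 1.81 ± 0.34 (2.56, 1.64 and 1.22 on the arrays) is a 3.50-fold higher mutant mean with an adjusted p of 0.0716. Myh6 and Myh7 are neighbours on chromosome 14 and their probes lie 28.8 kb apart. The Myh6 ratio exceeded the Myh7 ratio by 5.48, 3.69 and 3.01 on the 3 arrays, a mean of 4.06 ± 1.27 (SD, n = 3). The bright Myh6 probe, chr14:55560774-55560833, begins at base 6003 of its transcript. A further Myh6 probe that begins at base 308 exceeded background in none of the 6 samples and gives no ratio. To what extent each probe also reads the other heavy chain was not tested.

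Myh3 encodes the embryonic heavy chain, the first fast-type isoform of developing skeletal muscle and also found in the early heart. It had the highest mean ratio of the 42 genes. Its levels were 9.80, 8.93 and 9.85 in the mutant against 7.02, 7.0 and 7.25 in the wild type. The groups were far apart on all 3 arrays, and the wild type was above background on 2 of them. The mean ratio was 2.44 ± 0.28 (2.79, 1.93 and 2.60), 5.41-fold higher, and with an adjusted p of 0.0502 it was not called. Its adjusted p was under 0.05 in 6 of 13 alternative analyses, all drawn from the same 3 arrays. These 6 include the dye term and the fit without replicate 2, which gave the most calls over all genes. Myh3 dropped out of the alternative that required both genotypes above background. A dimmer Myh3 probe, at chr11:66915107-66915166 against chr11:66915724-66915783 for the brighter, gave 1.21 ± 0.34 (SD, n = 3), of the same sign on every array. Myh11, the smooth muscle heavy chain, was not above background on any array of either genotype.

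The light chains clasp the neck of the heavy chain, the essential chains stabilising it and the regulatory chains tuning it. Myl3 levels were 7.31, 10.49 and 8.75 in the mutant and 12.10, 14.15 and 12.14 in the wild type. All wild type samples were brighter than all mutant samples, in both dye orientations. The ratios were −4.79, −3.66 and −3.40, a mean of −3.95 ± 0.35 that corresponds to 15.4-fold lower, with an adjusted p of 0.0417. This was the lowest mean among the 42 genes, and the probe, at chr9:110672238-110672297 of mm9, was above background in every sample. The direction held in all 14 alternative analyses, and the call in 7, all drawn from the same 3 arrays. These 7 include the dye term and the fit without replicate 2, which gave the most calls over all genes. Adjusted p was 0.0913 without replicate 1, 0.0502 with median centring, 0.0691 with no filter on dim probes, 0.0538 with both genotypes required above background and 0.0579 with the channels unpaired. It was 0.288 with all spots in the background model and 0.136 in the authors' values, where the ratio was −2.70.

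Myl4, the essential light chain of atrial and embryonic muscle and the closest counterpart of Myl3 on the array, had a ratio nearer 0. The values of −1.26, 0.36 and −0.48 averaged −0.46 ± 0.37 (adjusted p = 0.515), with 1 array above 0. The Myl4 ratio exceeded that of Myl3 by 3.53, 4.02 and 2.92, a mean of 3.49 ± 0.55 (SD, n = 3), so the gap between these essential chains was present on each array. Myl1, the essential chain of fast skeletal muscle, was not above background on any mutant array and was above it on 2 of the 3 wild type arrays, with a bound of 1.23-fold higher in the wild type. Such a bound divides the bright genotype's mean by the lowest signal that counted as above background on each array. For Myl1 it is no strict minimum, since the wild type was itself not above background on the remaining array.

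Of the regulatory chains, Myl7 had levels of 6.72, 8.49 and 8.38 in the mutant and 8.38, 10.43 and 9.85 in the wild type. Within each array the mutant was lower, although over all samples the ranges overlapped. The ratios of −1.66, −1.94 and −1.47 had a mean of −1.69 ± 0.25 (3.23-fold lower, adjusted p = 0.0559), and every sample was above background. Myl2, its ventricular counterpart, had 1.10, −0.47 and −0.97, a mean of −0.11 ± 0.45 (adjusted p = 0.905) whose sign differed between arrays. Myl9, the smooth muscle chain, had 0.09, −0.27 and 0.60, a mean of 0.14 ± 0.28 (adjusted p = 0.797). The ratio of Myl2 minus that of Myl7 was above 0 on each array, at 1.58 ± 1.14 on average (SD, n = 3). Mylpf, the fast skeletal chain, was above background on 2 mutant arrays and 1 wild type array and was not tested.

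**Figure D2:**
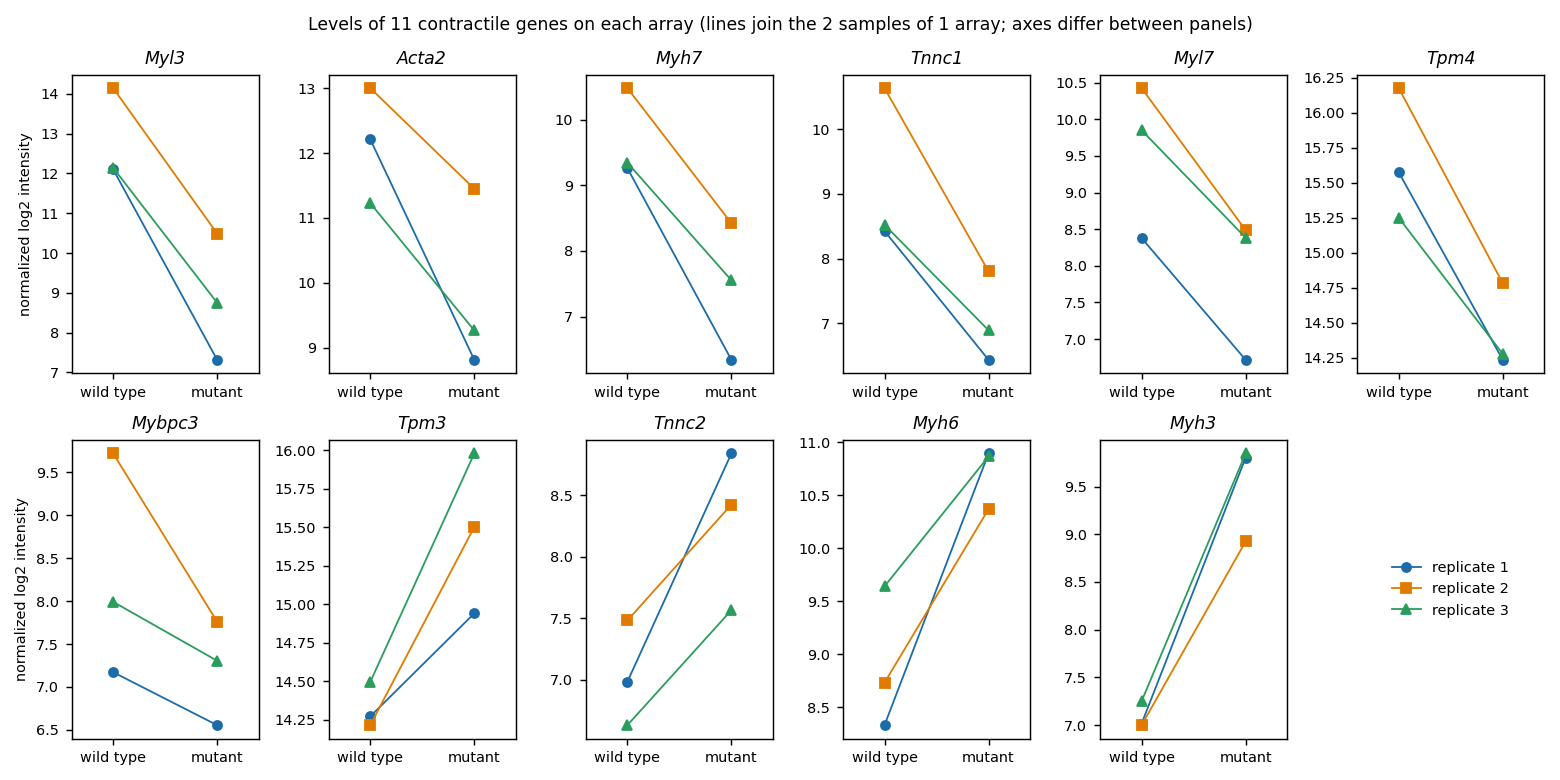
Normalized log2 intensity of 11 genes in wild type and mutant samples, 1 line per array, for the genes with an adjusted p under 0.1 or a mean ratio over 1 in size with 1 sign on all arrays. All lines slope down for Myl3, Acta2, Myh7, Tnnc1, Myl7, Tpm4 and Mybpc3 and up for Tpm3, Tnnc2, Myh6 and Myh3, while replicate 2 often sits at another level than replicates 1 and 3.

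In the troponin complex the calcium sensors differed most. Tnnc1, the form of heart and slow muscle, had levels of 6.43, 7.80 and 6.89 in the mutant and 8.43, 10.63 and 8.52 in the wild type, with no overlap. Its ratios of −1.99, −2.83 and −1.63 gave a mean of −2.15 ± 0.32, 4.44-fold lower (adjusted p = 0.0574). In the mutant the signal exceeded background in 1 sample of 3, so here too the size rests partly on mutant values at background. Tnnc2, the fast skeletal sensor, had 8.84, 8.43 and 7.57 in the mutant and 6.98, 7.48 and 6.63 in the wild type. Its lowest mutant sample was just above its highest wild type sample. The mean ratio of 1.25 ± 0.30 (1.86, 0.94 and 0.94, or 2.37-fold higher) had an adjusted p of 0.104. Its wild type signal exceeded background in 2 samples of 3, so this fold rests partly on wild type values at background. Between the sensors the ratio of Tnnc2 minus that of Tnnc1 was 3.85, 3.78 and 2.57, on average 3.40 ± 0.72 (SD, n = 3).

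The inhibitory and tropomyosin-binding subunits had ratios nearer 0 than the cardiac sensor. Tnnt2, cardiac troponin T, had ratios of 0.58, 0.66 and −0.67 with a mean of 0.19 ± 0.36 (adjusted p = 0.778). Tnni3, the adult cardiac inhibitor, had −0.17, −0.24 and 0.39 with a mean of −0.01 ± 0.26 (adjusted p = 0.988). Tnni1, the slow skeletal inhibitor that the embryonic heart also uses, had 0.15, −1.05 and −0.59 with a mean of −0.50 ± 0.32 (adjusted p = 0.413). For all these the arrays disagreed in sign. The ratio of Tnnt2 was above that of Tnnc1 by 2.58, 3.49 and 0.97 on the arrays, and that of Tnni1 by 2.14, 1.78 and 1.04, so the sensor gene had the lower ratio in both pairs on every array.

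The fast skeletal partners were both higher in the mutant on each array. Tnni2, the fast inhibitor, had ratios of 0.40, 0.69 and 0.84, a mean of 0.65 ± 0.24 (adjusted p = 0.210). Tnnt3 had 0.21, 0.61 and 0.97, a mean of 0.60 ± 0.27 (adjusted p = 0.270), and its mutant and wild type levels did not overlap. The second Tnnt3 probe, which shares the 27 bases shown above, had a mean of 0.38. Tnnt1, the slow form, had 0.35, −0.50 and 1.23, a mean of 0.36 ± 0.39 (adjusted p = 0.622), with the array of reversed dyes the one below 0. All 3 members of the fast troponin complex were thus above 0 on every array and none was called.

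Troponin I and T genes sit in pairs on mouse chromosomes, and the pairs could be compared by their probe positions. Tnni2 and Tnnt3, 68.2 kb apart on chromosome 7, differed by 0.19, 0.08 and −0.12. Tnnt1 and Tnni3, 15.8 kb apart on the same chromosome, differed by 0.52, −0.26 and 0.84. Tnni1 and Tnnt2, 42.4 kb apart on chromosome 1, differed by −0.44, −1.71 and 0.07. In all 3 pairs the difference changed sign between arrays, and it was smallest in size in the fast pair on each array except replicate 3, where that of Tnni1 and Tnnt2 was smaller.

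Among the sarcomeric and smooth muscle actins, Acta2 differed most. It encodes alpha smooth muscle actin, a marker of smooth muscle and myofibroblasts that early cardiomyocytes also make. The levels were 8.81, 11.45 and 9.26 in the mutant and 12.21, 13.0 and 11.23 in the wild type. The mutant was lower on each array, and its brightest sample passed the dimmest wild type sample, so the ranges overlapped. Ratios of −3.40, −1.55 and −1.96 averaged −2.30 ± 0.42, 4.94-fold lower, with an adjusted p of 0.0697. The probe lies at chr19:34316060-34316119 of mm9.

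The other actins showed smaller values of mixed sign. Actc1, cardiac actin, had 0.18, −0.37 and −0.99, a mean of −0.39 ± 0.31 (adjusted p = 0.507). Acta1, skeletal actin, had −0.44, −0.80 and 0.39, a mean of −0.28 ± 0.32 (adjusted p = 0.637). Actg2, the actin of gut smooth muscle, was above background in no mutant sample and 2 wild type samples, with a bound of 1.01-fold that, as for Myl1, is no strict minimum. The ratio of Actc1 exceeded that of Acta2 by 3.58, 1.19 and 0.97, on average 1.91 ± 1.45 (SD, n = 3), wide for its size.

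Tropomyosins, the coiled coils along the actin filament, are made from 4 genes, of which Tpm3 and Tpm4 are also widely used outside muscle. Neither of those 2 was called, and the ratios of their brightest probes had opposite signs on every array. Tpm4 levels were 14.24, 14.78 and 14.28 in the mutant and 15.57, 16.17 and 15.25 in the wild type, and Tpm3 levels 14.94, 15.50 and 15.98 against 14.27, 14.22 and 14.50. Neither gene's groups overlapped. Tpm4 had a mean ratio of −1.23 ± 0.25 (−1.34, −1.39 and −0.97; 2.35-fold lower, adjusted p = 0.0763). Tpm3 had 1.15 ± 0.28 (0.67, 1.29 and 1.48; 2.21-fold higher, adjusted p = 0.104). The Tpm3 ratio minus the Tpm4 ratio was 2.01, 2.68 and 2.45, on average 2.38 ± 0.34 (SD, n = 3), the least variable of the paralog differences computed here for its size.

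Among the other tropomyosin probes, ratios differed between parts of a gene. Tpm1, the main form of heart, had 6 probes. The brightest gave −0.85 ± 0.32 (−1.52, −0.40 and −0.63; adjusted p = 0.204), and the next, which shares 46 bases of genome with it, −0.90. The remaining 4 Tpm1 probes had means of −0.30, 0.44, −0.31 and −0.05. Tpm1 is known for many spliced forms, and the probe with 0.44 was above 0 on every array, the opposite of the brightest. Tpm2 had −0.52 ± 0.31 (adjusted p = 0.381) at its brighter probe and −0.09 at the other. The further Tpm3 probes had 0.92 ± 1.02 and 0.08 ± 0.87 (SD, n = 3), each below 0 on replicate 2 only, so the Tpm3 value describes the probe at chr3:89904428-89904487 and not the whole locus.

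**Figure D3:**
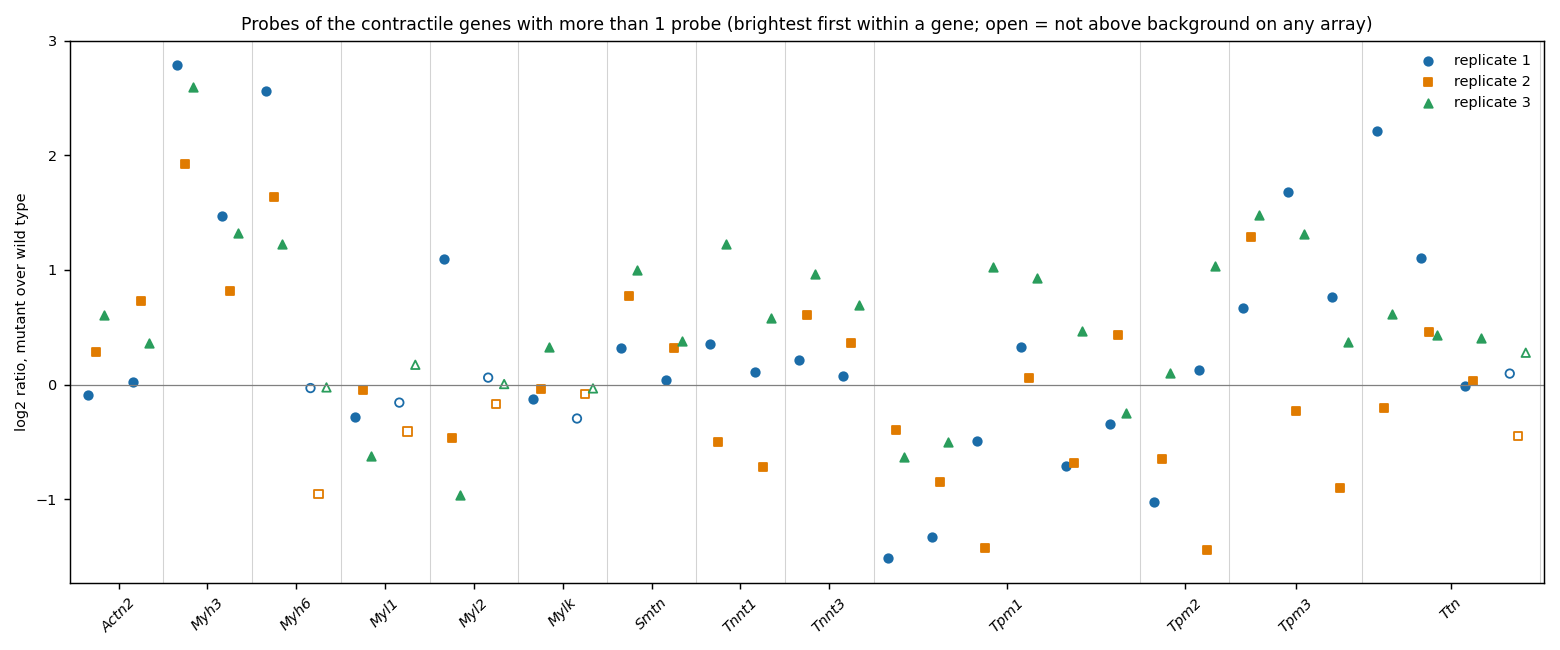
Log2 ratio of mutant over wild type on each array for all 33 probes of the 13 genes with more than 1, brightest first within a gene; open points are probes not above background on any array. Both Myh3 probes lie above 0 on every array, whereas the 6 Tpm1 probes scatter on both sides of 0.

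Across the 13 genes with several probes, 12 further probes from 8 genes were bright enough for the test's filter. In 10 of these the mean ratio had the same sign as the brightest probe of the gene, and in 2, of Tnnt1 and Tpm1, the opposite sign. The Tnnt1 probe had a mean of only −0.009, and on each array it had the sign of the brightest probe. Ttn, the molecular spring that spans from Z-disc to M-line, had 2.21, −0.21 and 0.61 at its brightest probe, a mean of 0.87 ± 0.50 (adjusted p = 0.368), with replicate 1 far from the others. Its next probe had 1.11, 0.46 and 0.43, above 0 throughout.

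Of the proteins bound to the thick filament and membranes, Mybpc3 had the largest value. It encodes cardiac myosin-binding protein C, which restrains the myosin heads. The levels were 6.56, 7.76 and 7.31 in the mutant against 7.17, 9.72 and 7.99 in the wild type, and 1 of the 3 mutant samples was not above background. The mutant was lower on each array, by most on replicate 2, and the ranges overlapped. The mean ratio was −1.09 ± 0.36 (−0.62, −1.96 and −0.69), with an adjusted p of 0.169. Ryr2, the calcium release channel of the cardiac sarcoplasmic reticulum, had −0.29 ± 0.28 (adjusted p = 0.584) with arrays of both signs.

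Several well-known muscle markers were too dim to test in either genotype. Pln, the inhibitor of the cardiac calcium pump, and Lmod1, a smooth muscle actin nucleator, were above background in no sample. Des (desmin), Ckm (muscle creatine kinase), Nppa (atrial natriuretic factor), Actn2 (the actinin of Z-discs), Csrp3 (muscle LIM protein) and Myom1 (of the M-line) were above it in 1 to 4 of the 6 samples. Csrp3 was above background in 2 wild type samples and no mutant sample, with a bound of 1.10-fold higher in the wild type, and Myom1 likewise with 1.01-fold. As for Myl1, neither bound is a strict minimum. The mean ratios of these dim markers, with those of Actg2, Myh11, Myl1 and Mylpf, ran from −0.45 to 0.27 and set no fold.

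The remaining smooth muscle genes had ratios nearer 0 than Acta2. Tagln, the actin-bundling transgelin, had −0.64, −0.70 and 0.26, a mean of −0.36 ± 0.30 (adjusted p = 0.526). Cnn1, calponin, had −0.34, −0.87 and 0.55, a mean of −0.22 ± 0.35 (adjusted p = 0.741). Mylk, the kinase of the regulatory light chain, had −0.13, −0.04 and 0.33, a mean of 0.06 ± 0.25 (adjusted p = 0.913). For each of these the arrays disagreed in sign. Smtn, smoothelin, was above 0 on every array at 0.32, 0.77 and 1.00, a mean of 0.70 ± 0.26 (adjusted p = 0.209), with a second probe at 0.25. The ratio of Tagln exceeded that of Acta2 by 2.76, 0.85 and 2.22 and that of Myl9 exceeded it by 3.49, 1.29 and 2.56, so Acta2 was the lower gene of both pairs on each array.

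**Figure D4:**
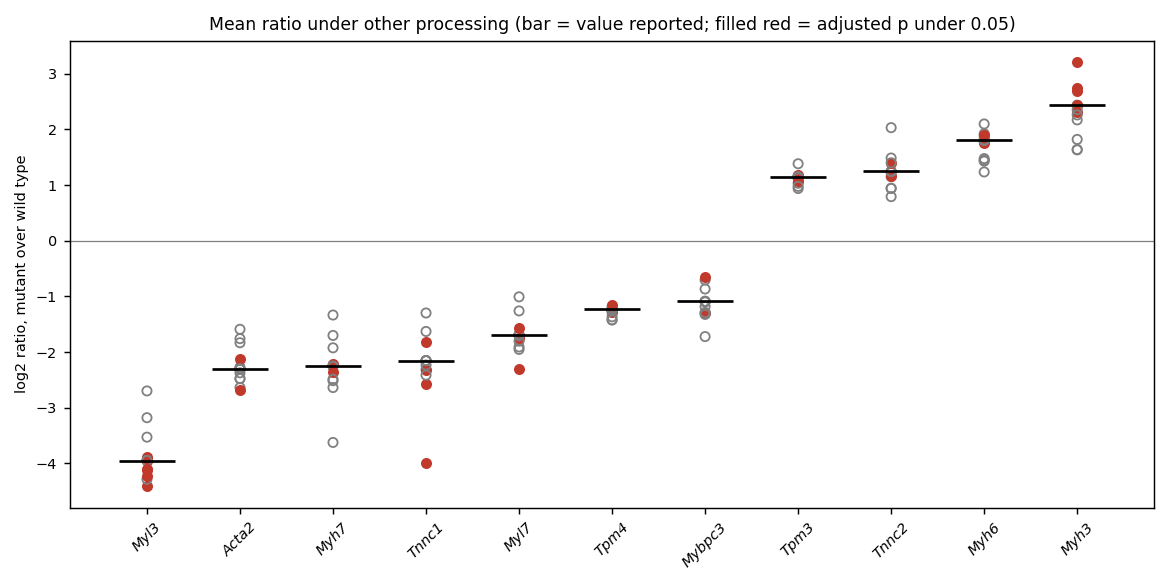
Mean log2 ratio of the same 11 genes under each alternative analysis (circles; filled red where the adjusted p was under 0.05) and as reported here (black bar). No circle crosses 0, while for each gene some analyses call it and others do not; Myl3 spans −4.41 to −2.70 and Myh3 1.63 to 3.21.

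The wider muscle programme gave no calls among the genes tested. Over all tested genes 0.207% were called higher and 0.0907% lower, so 0 calls in lists this short is no result about them. At an unadjusted p under 0.05 (limma) the share of all genes was 22.7%, and these shares apply to the lists below as well. Of 42 other sarcomere and Z-disc genes 18 were tested and 0 were called (limma; 5 higher and 3 lower at an unadjusted p under 0.05), with a median ratio of 0.19 against 0.03 over all tested genes. Cryab, the small heat shock chaperone of Z-discs, had −2.39 ± 0.35 (−3.19, −1.85 and −2.12; adjusted p = 0.0559), and Pdlim3, an actinin-binding LIM protein, 1.43 ± 0.23 (1.32, 1.47 and 1.51; adjusted p = 0.0606). The highest mean of that list was 1.52 ± 0.65 for Cmya5 (adjusted p = 0.249). Of 21 calcium handling and energy genes 8 were tested and 0 called (2 higher and 2 lower unadjusted), from Mb, myoglobin, at 1.07 ± 0.32 to Hrc, a calcium-binding protein of the reticulum, at −0.92 ± 0.39. Of 18 other smooth muscle genes 13 were tested and 0 called (2 higher and 1 lower unadjusted), from Ppp1r14a, an inhibitor of myosin phosphatase, at 1.10 ± 0.40 to Tgfb1i1 at −1.16 ± 0.34.

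Cytoskeletal paralogs outside muscle were all bright enough to test. Of 13 such genes 0 were called (1 higher and 1 lower unadjusted) and the median ratio was −0.27. Myh10, non-muscle myosin heavy chain IIB, was lowest with −1.12 ± 0.24 (−0.96, −1.31 and −1.08; adjusted p = 0.0855), and Myh14, the IIC chain, highest with 0.87 ± 0.26 (adjusted p = 0.143). Among muscle gene regulators, 15 of 17 were on the array by name and 8 were tested, with 0 called (0 higher and 2 lower unadjusted). Hand2, a factor of the heart fields, had −1.50 ± 0.32 (adjusted p = 0.0851) and Mef2d, a partner of muscle transcription factors, −1.37 ± 0.25 (adjusted p = 0.0698), while Mef2a was highest at 0.70 ± 0.48. Srf, the factor that binds the CArG box, had 0.08 (adjusted p = 0.857). The skeletal master regulators Myod1, Myf5 and Myog were not above background in any sample of either genotype, and neither was Mef2c. The cardiac regulator Nkx2-5 was above background on all 3 wild type arrays and 1 mutant array. Its mean ratio was −0.44 ± 0.24 (limma, adjusted p = 0.344), at levels of 6.72 in the mutant and 7.15 in the wild type.

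Markers of other cell types differed between the same samples. All 10 pluripotency genes were tested, 2 were called higher and 0 lower (limma; 7 and 1 unadjusted), and their summed level (log2 of the summed intensities of the list) was 17.4 to 18.6 in the mutant and 15.6 to 16.3 in the wild type. Zfp42 (3.17 ± 0.26, adjusted p = 0.0417) and Dppa5a (2.67 ± 0.24, adjusted p = 0.0417) were those called. Klf4, the 1 lower gene, had −1.14 ± 0.31 (adjusted p = 0.122), and Nanog was near 0 at 0.08 ± 0.26 (adjusted p = 0.883). Of 10 parietal endoderm genes, 0 were called (0 higher and 10 lower unadjusted), 9 were lower at an adjusted p under 0.1, and the summed level was 14.1 to 17.3 in the mutant and 18.2 to 19.2 in the wild type. Col4a1, a basement membrane collagen, was the lowest of them at −4.43 ± 0.74 (adjusted p = 0.0624). The median ratio was 2.08 for the pluripotency list and −3.04 for the parietal endoderm list, and the part of these cells in the muscle gene values was not tested.

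The other marker lists had medians nearer 0. Fibroblast markers had summed levels of 12.9 to 14.0 in the mutant and 13.6 to 14.7 in the wild type, with 0 of 9 tested called (1 higher and 3 lower unadjusted). Postn, a matrix protein of mesenchyme and valve, had −2.10 ± 0.28 (adjusted p = 0.0543), Lum −3.21 ± 0.67 (adjusted p = 0.0810) and Thy1 2.00 ± 0.31 (adjusted p = 0.0580). In these 3 lists every gene was above background in at least 1 sample. Endothelial markers, of which Tie1 was above background in none, had 11.4 to 11.8 against 11.9 to 12.5, with 0 of 6 called (0 and 2 unadjusted), and Cdh5, their cadherin, had −1.49 ± 0.25 (adjusted p = 0.0630). Kdr, Tek and Flt1 also had means below 0, while Eng at 0.80 ± 0.33 and Pecam1 at 0.19 ± 0.30 were above it. Neural markers had 11.1 to 12.1 against 11.6 to 15.6, with 0 of 6 called (0 and 2 unadjusted) and Zic1 and Sox1 at −5.41 ± 1.04 and −4.04 ± 0.68. Tubb3 was the highest of those tested at 0.09 ± 0.48. The fibroblast list thus held ratios of both signs, with a median of −0.54, and the part of fibroblast-like cells, which also express Acta2, in the Acta2 value was not tested.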

How the data were processed

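Embryoid body RNA was amplified per the labels' protocols, labelled with Cy3 or Cy5 and hybridised in pairs. The deposited scanner files hold spot and local background intensity, not normalized, per the file headers (Feature Extraction 10.7.3.1), with processed intensity and flags. The authors' deposited table holds log2 ratios. The submitters' processing notes name limma, and its settings are not given in the sources used here. Against the scanner values the table runs mutant over wild type, with medians of −0.04, 0.01 and −0.01, and its centring stays unknown. Its replicate 1 column correlated better with the scanner values of replicate 3 (0.775) than with its own (0.62), and its replicate 3 column better with those of replicate 1 (0.815) than with its own (0.715).

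Analysis used R 4.3.3, limma 3.58.1 and matplotlib 3.10.9: normexp with offset 50 and loess within arrays, control spots at weight 0. Outlier spots (317, 364 and 438) were left out, with 7 spots of replicate 3 whose local background exceeded 10 times the median and which would otherwise set the background model. Spots were averaged per probe. The filter asked that a probe be well above background throughout in the mutant, the wild type or both (19142 of 39429 passed), and the brightest of a gene was used. The test of the mean ratio used lmFit and eBayes (2 residual and 3.04 prior degrees of freedom), two-sided, over 15428 genes. Levels come from both channels after loess and Aquantile scaling. The dyes were not swapped equally, so means keep part of any dye effect. Pairing is by array, each holding 1 mutant and 1 wild type sample.

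The genes, classes and other lists were chosen with earlier results of these data known. Values on every array are given for genes with an adjusted p under 0.1 or a ratio over 1 in size of 1 sign, and for their paralogs. In the wider muscle, non-muscle and regulator lists, genes with an adjusted p under 0.1 were named, at most 4 by smallest p. The highest and lowest of those lists were named too, with a few regulators beyond them. In the cell type marker lists this rule was not applied, and the genes named there are examples. Per the file headers, mm9 is the build of probe coordinates. By accession 26761 probes matched GRCm38.p6 symbols, and 0 of these genes changed name. The code was tested on simulated data.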

Additional observations from a re-analysis of the deposited data

How the results depend on the processing

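The number of genes called lower was 1 as reported. It was 0 with all spots in the background model, with median centring, with no filter on dim probes, with both genotypes required above background, with unpaired channels (no replicate block) and in the authors' values, 2 with offset 16, 3 with Agilent's processed signals and 7 with a dye term. The number called higher was 0 as reported, 1 with offset 16, the processed signals, scaling between arrays or unpaired channels, and 6 with a dye term. Leaving out 1 array gave 0 to 9 genes lower and 0 to 5 higher, the most without replicate 2, where the arrays left share a dye orientation. Over all genes the calls numbered 32 higher and 14 lower, and the dye term gave 2448 and 2299, the fit without replicate 2 3962 and 3343, all spots in the background model 0 and 0 (1684 genes at an unadjusted p under 0.05) and the authors' values 0 and 0 (3057). Higher genes were 69.6% of calls as reported, 57.1% with median centring, 57.8% with scaling and 51.6% with a dye term.

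The cardiac median stayed below 0 and the skeletal median above 0 in every alternative that gave one. The cardiac median, −0.39 as reported, was −0.13 with all spots in the background model, −0.23 in the authors' values and −0.21 without replicate 3. The skeletal median, 0.30 as reported, was 0.12, 0.16 and 0.11 in these and 0.14 with median centring. That of the genes of several muscle types was −0.41 with the processed signals and −0.52 with both genotypes above background. The smooth muscle median lay between −0.22 and 0.10. Class medians use no filter, so the alternative without one gave no further value. Median centring moved the median of all genes to −0.22.

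Signs turned for 7 genes, whose reported ratios lay between −0.22 and 0.36. With all spots in the background model Myl2 was 0.20, Myl9 −0.0264 and Mylk −0.0494. Median centring gave −0.00137 for Tnnt1 and −0.20 for Myl9, and the authors' values −0.02 for Mylk. Leaving out 1 array gave ranges that crossed 0 for Tnnt2, Tnni3, Myl2, Cnn1, Tnnt1, Myl9 and Mylk: Tnnt2 −0.0406 to 0.62, Tnni3 −0.21 to 0.11, Myl2 −0.72 to 0.32, Cnn1 −0.61 to 0.10, Tnnt1 −0.0766 to 0.79, Myl9 −0.0894 to 0.34, Mylk −0.0804 to 0.15. The cause of these shifts was not tested. The 3 arrays limit precision, and for Myh7 and Tnnc1 so does the mutant signal, which was above background on 1 array.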
